A study of Mus musculus with 10 samples.

Results

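Glycolysis and HIF-1 target genes were described in sorted splenic dendritic cells of mice that lack or carry Atg16l1, a gene of the autophagy machinery. The set comprised 30 genes chosen by name: transporters and enzymes that take glucose to lactate, the kinases that hold pyruvate back from mitochondria, the oxygen-regulated subunit Hif1a, the oxygen sensor Egln3 and further targets of HIF-1. They were chosen with earlier results of these data known. They were 30 of the 53379 genes counted, and all 30 passed the filter on low counts that left 14528 genes for testing. The 10 RNA-seq libraries fell into 4 groups: CD11b KO (n = 2), CD11b WT (n = 3), CD8 KO (n = 2) and CD8 WT (n = 3). KO mice were Atg16l1 -/- and WT mice Atg16l1 +/+. All were C57BL/6 mice aged 16 weeks, and each library came from 1 mouse, in a series on an atherogenesis model. The labels give no diet, no Cre driver and no deleted exon. Cells were enriched on CD11c beads from spleens digested with enzymes, then sorted for high MHC class II and CD11c and for either CD11b or CD8. A group is named here by its label and genotype, and KO and WT libraries of a label by their number.

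Glycolysis splits glucose to pyruvate in the cytosol and yields ATP without oxygen. Cells then either pass pyruvate to the mitochondria or reduce it to lactate and export it. HIF-1 pairs an oxygen-labile alpha subunit with a stable partner, binds short hypoxia response elements and raises transcription of many glycolytic genes, of glucose transporters and of angiogenic factors. In dendritic cells, glycolysis is known to increase on activation through pattern recognition receptors and to feed the synthesis of secreted proteins.

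The libraries held 9467704 to 13768884 gene counts each, and the 30 genes together took 0.217% to 0.235% of them. Atg16l1 stood at 1.73 to 3.31 CPM (a gene's counts as a rate over all gene counts of its library) in the 4 KO libraries and at 13.3 to 32.7 CPM in the 6 WT libraries, with log2 fold changes of −3.27 ± 0.41 (SE, edgeR adjusted p = 9.96e-05; limma adjusted p = 0.0654) at the label CD11b and, under the label CD8, −2.79 ± 0.40 (edgeR adjusted p = 0.00132). Most markers of the subsets ran opposite to the labels, in 10 of 10 libraries. Under the label CD11b, Cd8a ranged between 448 and 578 CPM and Itgam, the CD11b gene, between 1.58 and 2.73 CPM. Under the label CD8, Cd8a ranged between 0.905 and 5.87 CPM and Itgam between 76.1 and 104 CPM. Xcr1, a receptor of type 1 conventional dendritic cells, was higher at the label CD11b, and Sirpa, a receptor of type 2 conventional dendritic cells, at the label CD8. Of 12 listed markers of type 1 cells, 12 were higher at the label CD11b in each genotype (edgeR adjusted p under 0.05). Of 13 markers of type 2 cells, 12 were lower there in WT and 11 in KO, and 1 was higher in each genotype. The labels are kept as given, so "label CD11b" names libraries whose marker transcripts are those of CD8-type cells. Read by markers instead of labels, each direction between subsets given here refers to the opposite cell type, while the comparisons of KO with WT keep theirs.

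Promoters of 6 genes called between the subset labels in both genotypes are shown first, because HIF-1 acts through a short core written ACGTG or GCGTG. They were picked to show both directions and windows outside annotated exons, not for the size of the difference. It was under 2-fold for Ldha in both genotypes and for Eno1 in KO. RefSeq windows on the build GRCm38.p6 were found for 29 of 30 genes. Each window below covers the 250 bases before the annotated start, in the gene's own direction, with none of its bases in an annotated exon. Capitals mark a core on either strand, so a core on the opposite strand reads CACGT or CACGC. The first 3 windows belong to genes that were higher at the label CD11b, the next 3 to genes that were higher at the label CD8.
Hk3 (chr13:55021386-55021635, minus strand): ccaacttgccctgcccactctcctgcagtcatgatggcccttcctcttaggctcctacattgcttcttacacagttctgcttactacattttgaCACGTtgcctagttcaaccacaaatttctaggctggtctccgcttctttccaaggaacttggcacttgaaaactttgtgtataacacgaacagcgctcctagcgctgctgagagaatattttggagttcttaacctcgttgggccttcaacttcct
Pgk1 (chrX:106186850-106187099, plus strand): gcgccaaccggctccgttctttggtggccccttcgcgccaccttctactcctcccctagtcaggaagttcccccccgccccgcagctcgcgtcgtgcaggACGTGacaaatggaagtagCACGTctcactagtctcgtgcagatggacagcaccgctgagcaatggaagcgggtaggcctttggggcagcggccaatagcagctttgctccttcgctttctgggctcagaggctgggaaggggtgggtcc
Ldha (chr7:46845554-46845803, plus strand): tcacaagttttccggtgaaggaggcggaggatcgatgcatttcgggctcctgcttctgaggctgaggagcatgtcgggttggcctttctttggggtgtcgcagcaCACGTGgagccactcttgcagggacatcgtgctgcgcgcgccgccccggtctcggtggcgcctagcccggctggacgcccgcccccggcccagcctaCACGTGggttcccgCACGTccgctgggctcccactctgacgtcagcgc
Slc2a6 (chr2:27027999-27028248, minus strand): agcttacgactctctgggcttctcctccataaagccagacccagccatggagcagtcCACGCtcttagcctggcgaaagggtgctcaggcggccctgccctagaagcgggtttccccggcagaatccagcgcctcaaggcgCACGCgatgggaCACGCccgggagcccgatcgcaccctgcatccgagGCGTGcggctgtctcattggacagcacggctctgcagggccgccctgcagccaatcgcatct
Eno1 (chr4:150236458-150236707, plus strand): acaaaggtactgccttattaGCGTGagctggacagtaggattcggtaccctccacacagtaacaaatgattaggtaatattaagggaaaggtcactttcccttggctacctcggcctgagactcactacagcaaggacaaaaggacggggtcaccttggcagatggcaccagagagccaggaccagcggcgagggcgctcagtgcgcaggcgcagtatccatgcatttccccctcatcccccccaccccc
Vegfa (chr17:46032378-46032627, minus strand): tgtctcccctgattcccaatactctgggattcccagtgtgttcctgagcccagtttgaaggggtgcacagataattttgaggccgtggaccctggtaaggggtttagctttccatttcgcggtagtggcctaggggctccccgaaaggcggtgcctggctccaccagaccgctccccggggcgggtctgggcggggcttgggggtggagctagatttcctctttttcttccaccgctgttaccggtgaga

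The Hk3 window held 1 core, the Pgk1 window 2 and the first Ldha window 5, of which 4 lie in 2 overlapping pairs, each a CACGTG, which reads the same on both strands. Slc2a6 had 4 cores and the first Eno1 window 1, whereas the first of the annotated Vegfa starts had 0. A second Vegfa start, most of whose upstream window is annotated as exon, had 2. A core lay in the upstream window of 27 of the 29 genes (93.1%), against 11226 of 27025 genes with such a window in the genome (41.5%). Counted by window, it was in 35 of 43 (81.4%) against 12679 of 32851 (38.6%). The genome's genes were not limited to those tested here, and were matched to the set for neither level nor base composition. ACGTG was found in 46.5% of the set's windows and 16.6% of all windows, GCGTG in 53.5% and 28.2%, and CACGTG, which contains ACGTG, in 9.30% and 6.02%. Either form of the core was present in 7 of 8 genes higher at the label CD11b, 7 of 7 higher at the label CD8 with a window, and 11 of 12 that were called in neither genotype. In the 12 windows of genes higher at the label CD11b, ACGTG lay in 66.7%, GCGTG in 33.3% and CACGTG in 16.7%. In the 11 windows of genes higher at the label CD8, the shares were 27.3%, 72.7% and 0%. The windows of genes that were not called held ACGTG in 50% and GCGTG in 56.2%. Some windows of one gene overlap and hold the same core, as in Aldoa and Eno1. These shares therefore do not count separate genes, and their difference was not tested. A match is a description of the sequence and no evidence of binding, and HIF-1 targets were among the criteria that built the set.

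**Figure D1:**
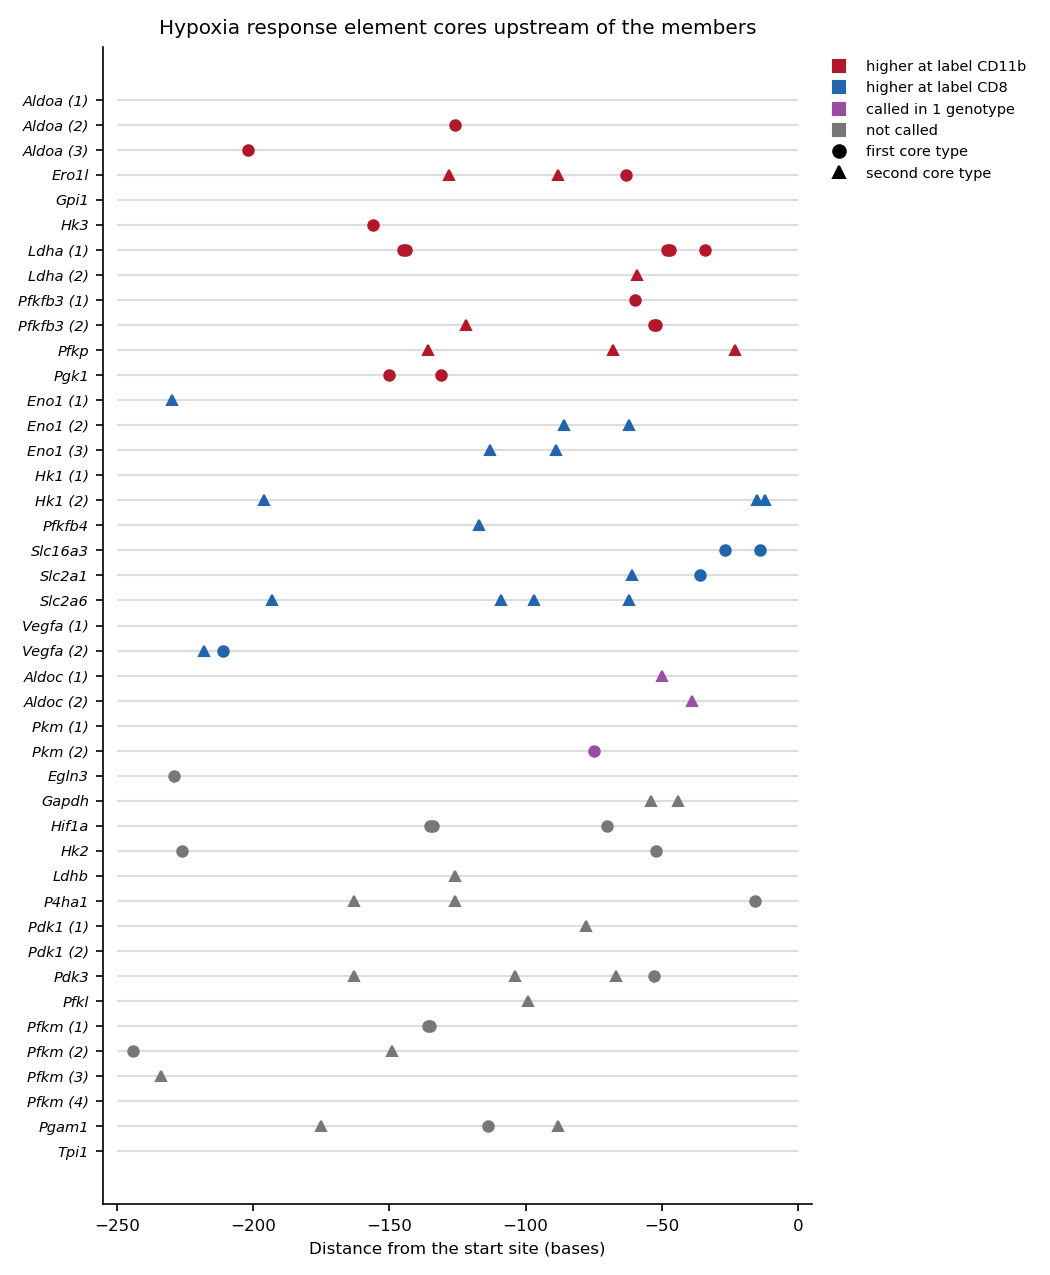
Positions of the hypoxia response element cores in the 250 bases before each RefSeq start of the set's genes. Each grey line is 1 upstream window (43 in all, numbered where a gene has several), circles mark ACGTG and triangles GCGTG on either strand, and the colour gives the subset difference; cores occur in every colour class.

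The first comparison asked how the genes differ between the subset labels, separately in KO and in WT mice. Glucose transporters, the lactate exporter Slc16a3 and Vegfa were lower at the label CD11b than at the label CD8, with log2 fold changes of −3.89 to −2.24, while Hk3, Pfkp, Pfkfb3, Gpi1, Aldoa, Pgk1, Ldha and Ero1l were higher at the label CD11b in both genotypes. With edgeR's quasi-likelihood test, 17 of 30 genes (56.7%) were called at an adjusted p under 0.05 in KO, 9 higher and 8 lower at the label CD11b. In WT 17 of 30 were also called, 9 higher and 8 lower. Of all genes tested, 22.8% were called in KO (10.3% higher and 12.5% lower) and 29.5% in WT (13.8% higher and 15.7% lower). The same 16 genes were called in both genotypes and in the same direction (53.3%), against 19.5% of all genes. The CPM of the label groups did not overlap for 21 genes in KO (70.0%) and 19 in WT (63.3%), against 58.7% and 41.5% of all genes. Because earlier results of these data were known when the set was chosen, these shares describe the set and do not test it. DESeq2 called 17 and 17, and limma-voom 17 in KO and 18 in WT. The median log2 fold change of the set was 0.04 in KO and 0.24 in WT, against −0.01 and 0.00 over all genes tested. These are bulk libraries, in which fewer cells of a type and less RNA per cell cannot be told apart.

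**Figure D2:**
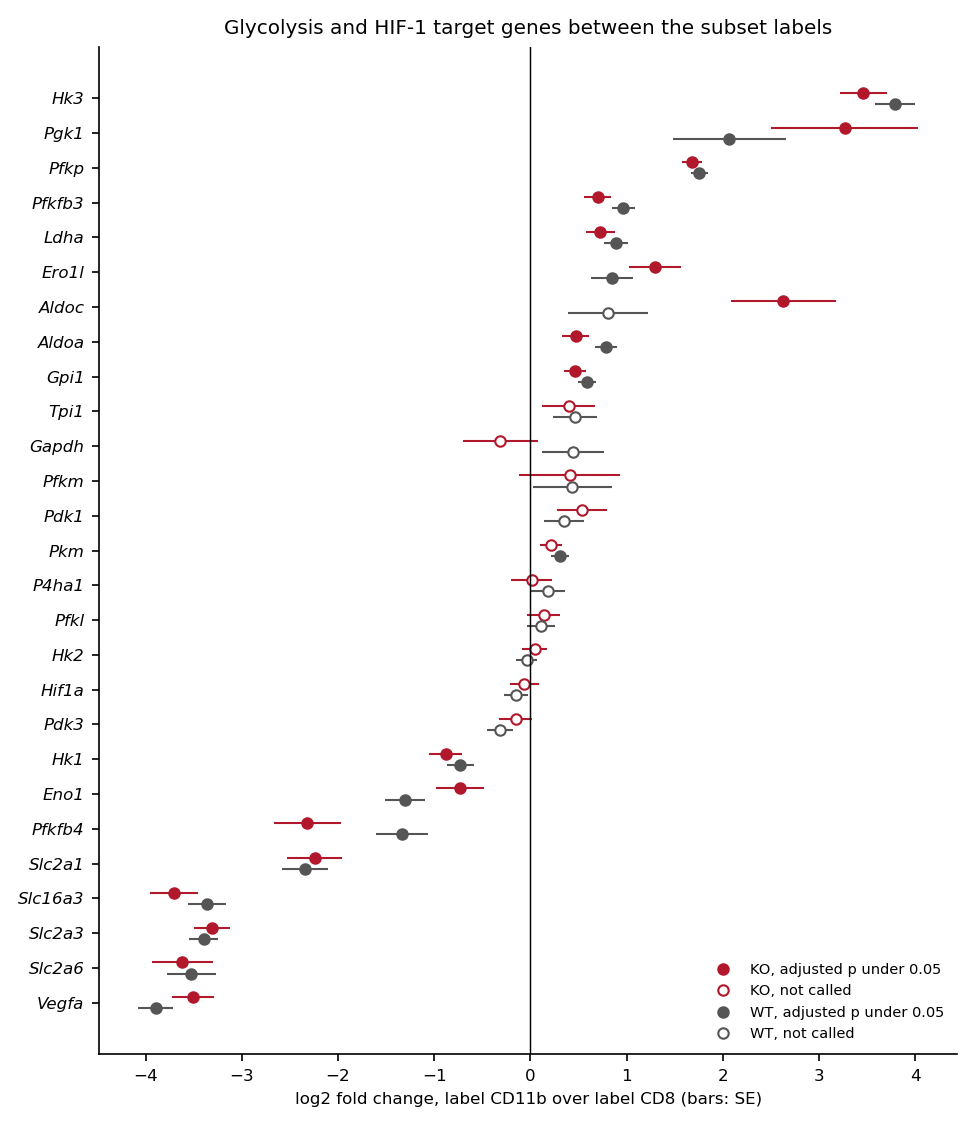
Log2 fold change of label CD11b over label CD8 for 27 genes of the set, in KO and in WT, with bars for the SE. Ldhb, Egln3 and Pgam1, which had few counts, are left out; Vegfa, Slc16a3 and the glucose transporters lie far to the negative side and Hk3 far to the positive side in both genotypes.

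The glucose transporters were the role in which 3 of 3 genes were lower at the label CD11b. Slc2a1 encodes GLUT1, the widely expressed basal transporter. It stood at 8.58 and 19.8 CPM in CD11b KO against 55.6 and 80.3 CPM in CD8 KO, and at 12.2, 11.2 and 14.3 CPM in CD11b WT against 76.9, 65.2 and 48.6 CPM in CD8 WT. The highest library of the label CD11b lay below the lowest of the label CD8. Its log2 fold change was −2.24 ± 0.29 (SE) in KO and −2.34 ± 0.24 in WT (edgeR adjusted p = 2.08e-06 and 3.53e-08), and −2.98 in KO without CD11b KO 2. Slc2a3, which encodes the high-affinity transporter GLUT3, had 12.3 and 8.92 CPM in CD11b KO against 111 and 98.3 CPM in CD8 KO, and 11.1, 13.1 and 12.9 CPM in CD11b WT against 147, 127 and 116 CPM in CD8 WT. Its libraries were about as far apart in both genotypes, with −3.31 ± 0.19 in KO and −3.39 ± 0.15 in WT (edgeR adjusted p = 4.30e-12 and 2.83e-14). For Slc2a6, which encodes GLUT6, the values were 3.43 and 9.83 CPM in CD11b KO against 83.5 and 82.7 CPM in CD8 KO, and 12.3, 8.15 and 5.67 CPM in CD11b WT against 90.5, 119 and 93.3 CPM in CD8 WT. CD11b KO 1 was the lowest library, and the log2 fold change was −3.62 ± 0.32 in KO and −3.52 ± 0.25 in WT (edgeR adjusted p = 6.00e-09 and 1.06e-10), or −4.59 in KO without CD11b KO 2. Per kilobase of exon, the 3 transporters summed to 7.83 ± 1.77 CPM per kb at the label CD11b and 64.4 ± 7.08 CPM per kb at the label CD8 (SD, n = 5 each).

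Hexokinases carry out the first step, the phosphorylation of glucose. The subset labels differed in which of the 3 genes had the highest level per kilobase of exon. Hk3 encodes the hexokinase of leukocytes that does not dock to mitochondria. It reached 145 and 144 CPM in CD11b KO against 11.4 and 14.9 CPM in CD8 KO, and 120, 113 and 115 CPM in CD11b WT against 10.4, 10.7 and 4.26 CPM in CD8 WT. All 5 libraries of the label CD11b lay far above all 5 of the label CD8, with a log2 fold change of 3.46 ± 0.24 (SE) in KO and 3.78 ± 0.21 in WT (edgeR adjusted p = 1.26e-10 and 9.97e-13). Hk1, the housekeeping enzyme that docks to mitochondria, ran the other way, with 35.7 and 42.7 CPM in CD11b KO against 72.5 and 72.1 CPM in CD8 KO, and 48.8, 37.5 and 51.0 CPM in CD11b WT against 67.2, 76.9 and 83.1 CPM in CD8 WT. The groups did not overlap in either genotype (−0.88 ± 0.17 in KO and −0.73 ± 0.14 in WT, edgeR adjusted p = 0.000407 and 0.000242). Hk2, the inducible hexokinase and a classical HIF-1 target, was not called, with a log2 fold change of 0.04 (95% interval −0.23 to 0.31) in KO and −0.04 (−0.26 to 0.18) in WT. Hk3 made up 59.7% ± 4.52 of the summed hexokinase CPM per kb at the label CD11b and 9.46% ± 3.61 at the label CD8, and Hk2 31.5% ± 3.55 and 61.2% ± 3.09 (SD, n = 5 each). The length used was that of all annotated exons of a gene, so these shares depend on it and are not shares of transcripts. The 3 genes summed to 57.7 ± 3.34 CPM per kb at the label CD11b and 29.7 ± 1.05 CPM per kb at the label CD8.

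**Figure D3:**
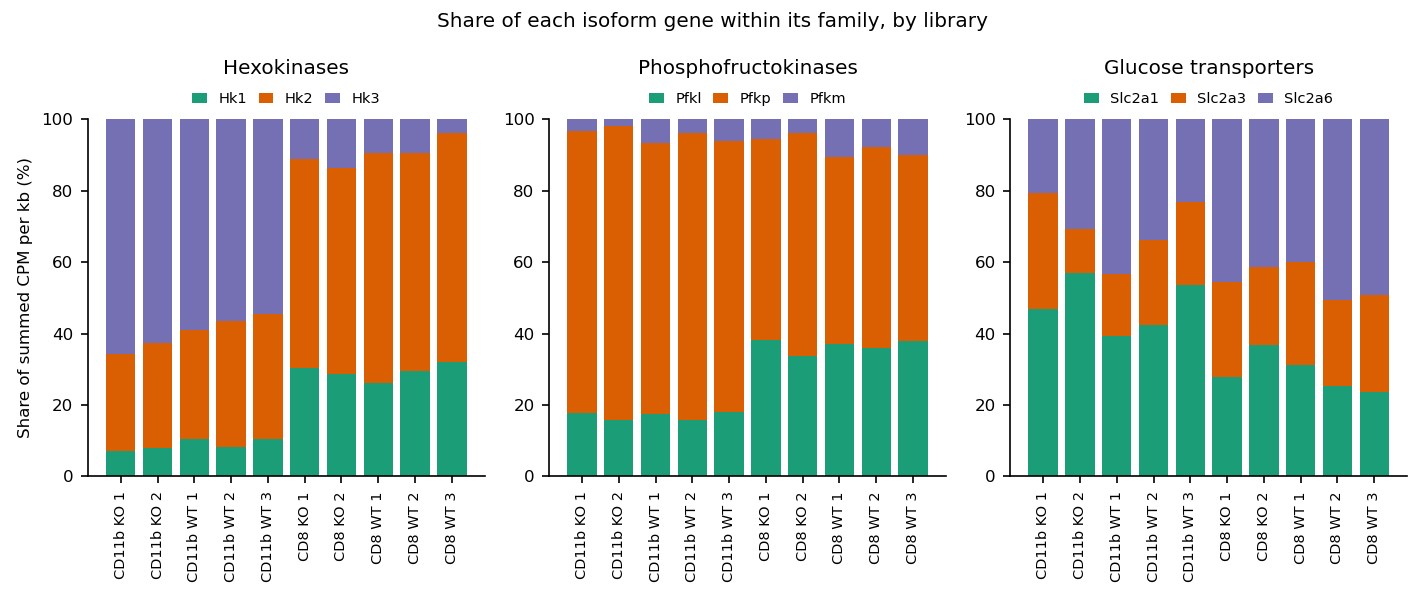
Share of each gene in the summed CPM per kb of its family in each of the 10 libraries, for hexokinases, phosphofructokinases and glucose transporters. Hk3 takes 54.6% to 65.7% of the hexokinase bar in libraries labelled CD11b and 3.82% to 13.7% in those labelled CD8, and Pfkp takes the larger part of the phosphofructokinase bar in every library.

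Phosphofructokinase commits sugar to glycolysis, and PFKFB enzymes make and remove its strongest activator. Pfkp, the platelet-type subunit, had 454 and 456 CPM in CD11b KO against 142 and 142.5 CPM in CD8 KO, and 399, 418 and 392 CPM in CD11b WT against 121, 122 and 115 CPM in CD8 WT. The spread within a group was small beside this gap, and the log2 fold change was 1.68 ± 0.11 (SE) in KO and 1.75 ± 0.09 in WT (edgeR adjusted p = 2.05e-11 and 1.46e-13). The liver-type Pfkl and muscle-type Pfkm were not called, at 0.14 ± 0.18 and 0.41 ± 0.52 in KO and 0.11 ± 0.14 and 0.43 ± 0.41 in WT. Pfkp made up 78.6% ± 2.79 of phosphofructokinase CPM per kb at the label CD11b and 55.9% ± 4.22 at the label CD8 (SD, n = 5 each). Pfkfb3 encodes the form whose activity most favours making that activator. It reached 391 and 378 CPM in CD11b KO against 241 and 233 CPM in CD8 KO, and 287, 441 and 341 CPM in CD11b WT against 185, 185 and 177 CPM in CD8 WT. CD11b WT 2 was the highest library, and the label groups did not overlap in either genotype (0.70 ± 0.14 in KO and 0.97 ± 0.11 in WT, edgeR adjusted p = 0.000496 and 4.04e-07). Pfkfb4, a second form known as hypoxia-inducible, was lower at the label CD11b, with 5.85 and 3.42 CPM in CD11b KO against 22.7 and 23.4 CPM in CD8 KO, and 9.80, 5.28 and 9.02 CPM in CD11b WT against 19.7, 18.5 and 22.7 CPM in CD8 WT. Its log2 fold change was −2.32 ± 0.35 in KO and −1.34 ± 0.27 in WT (edgeR adjusted p = 1.66e-05 and 0.000429), and the difference between those 2 values was not called (−0.98 ± 0.43, edgeR adjusted p = 0.867).

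Of the 9 other glycolytic enzymes, 4 were higher and 1 lower at the label CD11b in each genotype. Gpi1, which converts glucose phosphate to fructose phosphate, had 229 and 264 CPM in CD11b KO against 189 and 170.5 CPM in CD8 KO, and 276, 273.5 and 302 CPM in CD11b WT against 189, 189 and 190 CPM in CD8 WT. The gap was modest but clear of the spread (0.46 ± 0.11 (SE) in KO and 0.58 ± 0.09 in WT, edgeR adjusted p = 0.00405 and 2.47e-05). Aldoa, the main aldolase, had 134 and 127 CPM in CD11b KO against 89.0 and 99.4 CPM in CD8 KO, and 116, 142 and 138 CPM in CD11b WT against 79.8, 67.1 and 82.3 CPM in CD8 WT. The log2 fold changes were 0.47 ± 0.14 and 0.79 ± 0.12 (edgeR adjusted p = 0.0165 in KO and 8.76e-06 in WT). In KO, Gpi1 lost its call without CD11b KO 2 or CD8 KO 2 (edgeR adjusted p = 0.0750 and 0.0575) and Aldoa without CD11b KO 1 or CD8 KO 1 (0.0943 and 0.154).

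Aldoc, the brain-type aldolase, was the gene called in KO alone. It stood at 10.7 and 10.3 CPM in CD11b KO against 2.06 and 1.31 CPM in CD8 KO, and at 7.75, 10.1 and 5.30 CPM in CD11b WT against 7.24, 2.44 and 3.69 CPM in CD8 WT. The log2 fold change was 2.63 ± 0.55 (SE) in KO and 0.80 ± 0.42 in WT (edgeR adjusted p = 0.000783 and 0.164), with overlapping groups in WT, and 1.33 in WT without CD8 WT 1 (0.0333). Whether these differ is the test of the genotype effects between labels, which did not pass (1.83 ± 0.68, edgeR adjusted p = 0.859). Tpi1 and Gapdh were not called in either genotype, but without CD8 KO 2 Tpi1 was called in KO (1.09, edgeR adjusted p = 0.0120).

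Eno1, Pgk1 and Pkm share long stretches with pseudogenes and other genes, so their levels are uncertain. Of their distinct stretches of 50 transcript bases, 26.0%, 53.9% and 25.8% also occur in transcripts of other genes, and Gapdh (24.7%, in 218 other genes), Pgam1 (36.2%) and Ldhb (21.0%) are in the same position. Reads that map to several places made up 21.7% to 25.5% of all reads and are not in the gene counts. Eno1, which makes phosphoenolpyruvate, had 19.8 and 15.8 CPM in CD11b KO against 29.6 and 29.5 CPM in CD8 KO, and 13.5, 9.05 and 13.3 CPM in CD11b WT against 25.9, 28.2 and 34.3 CPM in CD8 WT (−0.73 ± 0.25 (SE) in KO and −1.30 ± 0.21 in WT, edgeR adjusted p = 0.0388 and 3.10e-05). The call in KO ended without any 1 of CD11b KO 1 or 2, CD8 WT 2, or CD8 KO 1 or 2 (edgeR adjusted p = 0.0548, 0.236, 0.0554, 0.135 and 0.135). Pgk1, the enzyme of the first ATP-yielding step, was low throughout, at 8.68 and 6.75 CPM in CD11b KO against 1.48 and 0.0871 CPM in CD8 KO, and 4.10, 9.58 and 5.40 CPM in CD11b WT against 1.19, 1.72 and 1.61 CPM in CD8 WT. It was called in KO (3.26 ± 0.76, edgeR adjusted p = 0.00244) and in WT (2.07 ± 0.59, edgeR adjusted p = 0.00906). CD8 KO 2 held 1 count, and the log2 fold change in KO was 2.38 without it and 6.30 without CD8 KO 1. In WT the call ended without CD11b WT 2 (1.64, edgeR adjusted p = 0.0673). Pkm, which encodes pyruvate kinase M, was called in WT (0.31 ± 0.09, edgeR adjusted p = 0.0154) and not in KO (0.21 ± 0.12, edgeR adjusted p = 0.224). It had 165.1 and 165.4 CPM in CD11b KO against 139 and 147 CPM in CD8 KO, and 171, 171.5 and 175.5 CPM in CD11b WT against 135, 134 and 149 CPM in CD8 WT, so that the label groups did not overlap. The call in WT ended without CD11b WT 3, CD8 WT 1 or CD8 WT 2 (edgeR adjusted p = 0.0504, 0.0636 and 0.0524).

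At the end of the pathway, Ldha and the lactate exporter gene Slc16a3 differed in opposite directions. Ldha, the lactate dehydrogenase subunit that favours lactate, reached 167.5 and 206 CPM in CD11b KO against 109 and 117 CPM in CD8 KO, and 201, 181 and 185 CPM in CD11b WT against 80.6, 112 and 113 CPM in CD8 WT. The lowest library of the label CD11b was above the highest of the label CD8 (0.73 ± 0.15 (SE) in KO and 0.89 ± 0.12 in WT, edgeR adjusted p = 0.000672 and 3.48e-06). Ldhb, the subunit that favours pyruvate, had 88 counts over all libraries and 0 in both CD11b KO libraries, and was not called by edgeR. Slc16a3 encodes MCT4, the lactate exporter of glycolytic cells. Its values were 5.45 and 3.50 CPM in CD11b KO against 65.5 and 50.1 CPM in CD8 KO, and 5.01, 4.98 and 5.40 CPM in CD11b WT against 52.7, 54.1 and 51.5 CPM in CD8 WT. This gave a log2 fold change of −3.70 ± 0.25 in KO and −3.36 ± 0.20 in WT (edgeR adjusted p = 6.70e-11 and 3.65e-12). At the label CD11b, 52.9% of the reads over this gene lay on the opposite strand, against 6.43% at the label CD8, and counted without regard to strand its log2 fold change was −2.36 in KO and −2.65 in WT. Pdk1 and Pdk3, kinases that inhibit pyruvate dehydrogenase, were not called (0.53 ± 0.26 and −0.15 ± 0.17 in KO, 0.35 ± 0.21 and −0.32 ± 0.14 in WT), although Pdk3 was called in WT without CD11b WT 2 (edgeR adjusted p = 0.0324) or without CD8 WT 1 (0.0256).

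Hif1a was not called between the labels in either genotype. Hif1a stood at 146 and 198 CPM in CD11b KO against 175 and 184 CPM in CD8 KO, and at 133, 183 and 164 CPM in CD11b WT against 176, 197.5 and 160.4 CPM in CD8 WT. The groups overlapped, with a log2 fold change of −0.06 (95% interval −0.38 to 0.25) in KO and −0.15 (−0.41 to 0.10) in WT. HIF-1 is controlled mainly through the stability of its protein, which these libraries do not measure. Egln3, which encodes the hydroxylase PHD3, had 73 counts over all libraries and was not called by edgeR. Vegfa, the endothelial growth factor, showed a large subset difference: 37.7 and 18.8 CPM in CD11b KO against 379 and 259 CPM in CD8 KO, and 27.3, 25.0 and 30.9 CPM in CD11b WT against 443, 393.5 and 399 CPM in CD8 WT. Its libraries did not overlap, with −3.51 ± 0.22 (SE) in KO and −3.89 ± 0.18 in WT (edgeR adjusted p = 2.36e-11 and 6.80e-14). Ero1l, the oxidase that helps form disulfide bonds in the endoplasmic reticulum, went the other way, with 25.3 and 26.1 CPM in CD11b KO against 9.55 and 11.4 CPM in CD8 KO, and 27.1, 26.9 and 26.0 CPM in CD11b WT against 12.1, 19.9 and 12.3 CPM in CD8 WT. It was higher by 1.29 ± 0.27 in KO and 0.85 ± 0.22 in WT (edgeR adjusted p = 0.000870 and 0.00416). P4ha1, a collagen prolyl hydroxylase and HIF-1 target, was not called (0.01 ± 0.21 in KO and 0.18 ± 0.18 in WT).

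**Figure D4:**
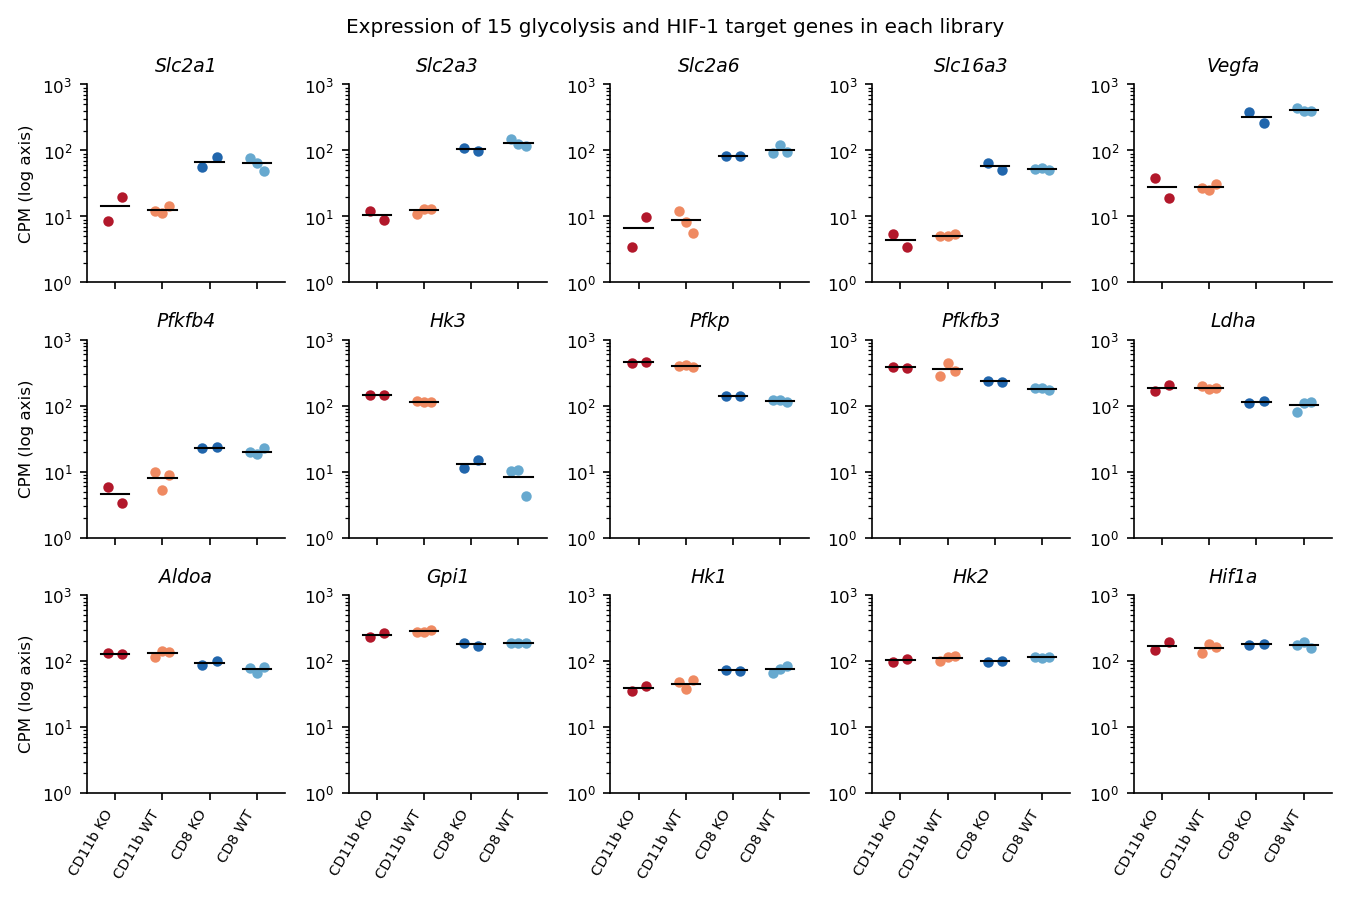
CPM of 15 genes of the set in each of the 10 libraries on a log axis, with the mean of each group as a line. Slc2a1, Slc2a3, Slc2a6, Slc16a3, Vegfa and Pfkfb4 sit lower in both groups labelled CD11b, Hk3 and Pfkp sit higher there, and KO and WT of one label lie close together.

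Set side by side per kilobase of exon, the order of the genes differed between the labels. At the label CD11b, Ldha had the highest level (56.8 CPM per kb, 50.6 to 62.2 over 5 libraries), followed by Pfkfb3 (48.6), Aldoa (45.1), Gpi1 (41.7) and Hk3 (34.6). Ranges of neighbours in this order overlapped, so that Ldha and Pfkfb3 are not separated by their spread. At the label CD8, Vegfa came first at 87.4 CPM per kb (60.4 to 103), above the range of the next gene, Ldha (32.1, 24.3 to 35.3), which overlapped those of Hif1a (30.3), Slc2a6 (29.2) and Gpi1 (28.7). Vegfa was the 14th of 30 at the label CD11b (6.52 CPM per kb), and Hk3 the 21st at the label CD8 (2.80 CPM per kb). Reads mapping to several places are not counted, which limits the place of genes such as Gapdh and Pgk1 in this order. The length used was that of all annotated exons of a gene, so these levels are not numbers of transcripts.

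Libraries of the 2 labels also differed in transcripts of other cells. The 12 B cell markers summed to 276 to 618 CPM at the label CD11b and 573 to 2773 CPM at the label CD8, with the highest sum in CD8 KO 2. Red pulp macrophage markers summed to 158 to 221.5 CPM and 319.5 to 534.5 CPM, and monocyte markers to 207.5 to 241 CPM and 520 to 746 CPM. In KO, 12 of 12 B cell, 8 of 12 macrophage and 3 of 7 tested monocyte markers were called lower at the label CD11b, and in WT 8 of 12, 8 of 12 (with 1 higher) and 4 of 7. Immediate early genes, which respond to tissue digestion, summed to 7098 to 9455 CPM at the label CD11b and 10206 to 16617 CPM at the label CD8, with 8 of 14 called lower in each genotype. Plasma cell markers summed to 94.3 to 118.5 CPM and 109 to 182 CPM, with 1 higher and 3 lower of 6 in KO and 1 higher and 4 lower in WT. Plasmacytoid dendritic cell markers ran the other way, at 123 to 190.1 CPM and 99.3 to 151.5 CPM, with 3 higher and 1 lower of 8 in KO and 4 higher and 0 lower in WT by edgeR. Their part in the differences above was not tested. Neutrophil markers were near 0, at 1.21 to 3.33 CPM and 1.57 to 4.86 CPM for the sum of 8 genes. Without CD11b WT 1 and CD8 KO 2, 16 genes of the set were called in KO and 18 in WT, an alternative chosen after the data were seen.

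Other genes of these pathways were read from lists of the same kind, none of whose genes is in the set. Among 10 tested genes of hexose and lactate transport, 1 was higher and 3 lower at the label CD11b in KO, and 2 higher and 4 lower in WT (40% and 60% called, against 22.8% and 29.5% of all genes tested). Txnip, which restrains glucose uptake, was lower, with log2 fold changes of −2.62 ± 0.21 (SE) in KO and −2.53 ± 0.17 in WT (edgeR adjusted p = 8.81e-10 and 2.79e-11), and Emb, a chaperone of lactate transporters, had −3.85 ± 0.30 and −2.86 ± 0.22 (edgeR adjusted p = 6.37e-10 and 3.29e-10). The transporter gene Slc16a6 was higher (1.52 in KO and 1.26 in WT). Slc16a1, which encodes the lactate transporter MCT1, was also higher in WT (0.92 ± 0.24, edgeR adjusted p = 0.00527) and not called in KO (0.48 ± 0.30, edgeR adjusted p = 0.293), with 14.8 to 19.4 CPM at the label CD11b and 7.78 to 12.5 CPM at the label CD8, opposite to Slc16a3. Among 30 tested further HIF-1 targets, 4 were higher and 7 lower in KO, and 6 higher and 10 lower in WT (36.7% and 53.3% called). Ddit4, an inhibitor of mTORC1, had −5.00 ± 0.49 and −3.55 ± 0.35, the circadian repressor Bhlhe40 −1.58 ± 0.09 and −1.51 ± 0.07, and Ndrg1 −1.69 ± 0.17 and −1.60 ± 0.14, whereas Flt1, a receptor for VEGF-A, had 3.94 ± 0.29 and 4.48 ± 0.24 (edgeR adjusted p = 3.58e-08, 4.81e-12, 3.44e-08 and 2.38e-10 in KO). Of 9 tested HIF subunits and sensors, the coactivator genes Ep300 (−0.56 in KO and −0.51 in WT) and Crebbp (−0.33 and −0.30) were lower and 0 higher by edgeR, 22.2% in each genotype. Of 13 further glycolytic genes, 1 was higher and 1 lower in KO (Adpgk 0.65, Eno3 −0.71) and 2 higher and 1 lower in WT (15.4% and 23.1%). Of 12 genes of pyruvate entry into mitochondria, 2 were lower in KO (Pdha1 −0.80, Pdp1 −1.45) and 1 in WT (Pdha1 −0.70), or 16.7% and 8.33%. In these last 3 lists the share called was below that over all genes in both genotypes.

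The comparison of KO with WT asked whether loss of Atg16l1 moves these genes within a label. No gene of the set was called. With edgeR, 0 of 30 were called at the label CD11b (3 at an unadjusted p under 0.05) and 0 of 30 at the label CD8 (7 at an unadjusted p under 0.05), and DESeq2 and limma-voom each called 0 at either label. Of all genes tested, 0.145% were called at each label, and 6.42% and 6.52% had an unadjusted p under 0.05. The smallest adjusted p was that of Pfkfb4 at the label CD11b (−0.80 ± 0.32 (SE), edgeR adjusted p = 0.678) and of Pfkfb3 at the label CD8 (0.38 ± 0.13, edgeR adjusted p = 0.454). Median log2 fold changes of the set were −0.04 and 0.01, against −0.01 and 0.00 over all genes tested. A p that misses the threshold does not show equality, so the intervals are given: at each label the 95% interval of 21 of 30 genes lay within a log2 fold change of −1 to 1, and that of 9 reached beyond. Among the 24 genes with a mean of at least 10 CPM, log2 fold changes ran from −0.80 (Pfkfb4) to 0.57 (Eno1) at the label CD11b and from −0.50 (Ero1l) to 0.64 (Hk3) at the label CD8. Hif1a had 0.11 (95% interval −0.18 to 0.39) and 0.02 (−0.27 to 0.30), and Vegfa 0.02 (−0.39 to 0.44) and −0.37 (−0.74 to 0.00).

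**Figure D5:**
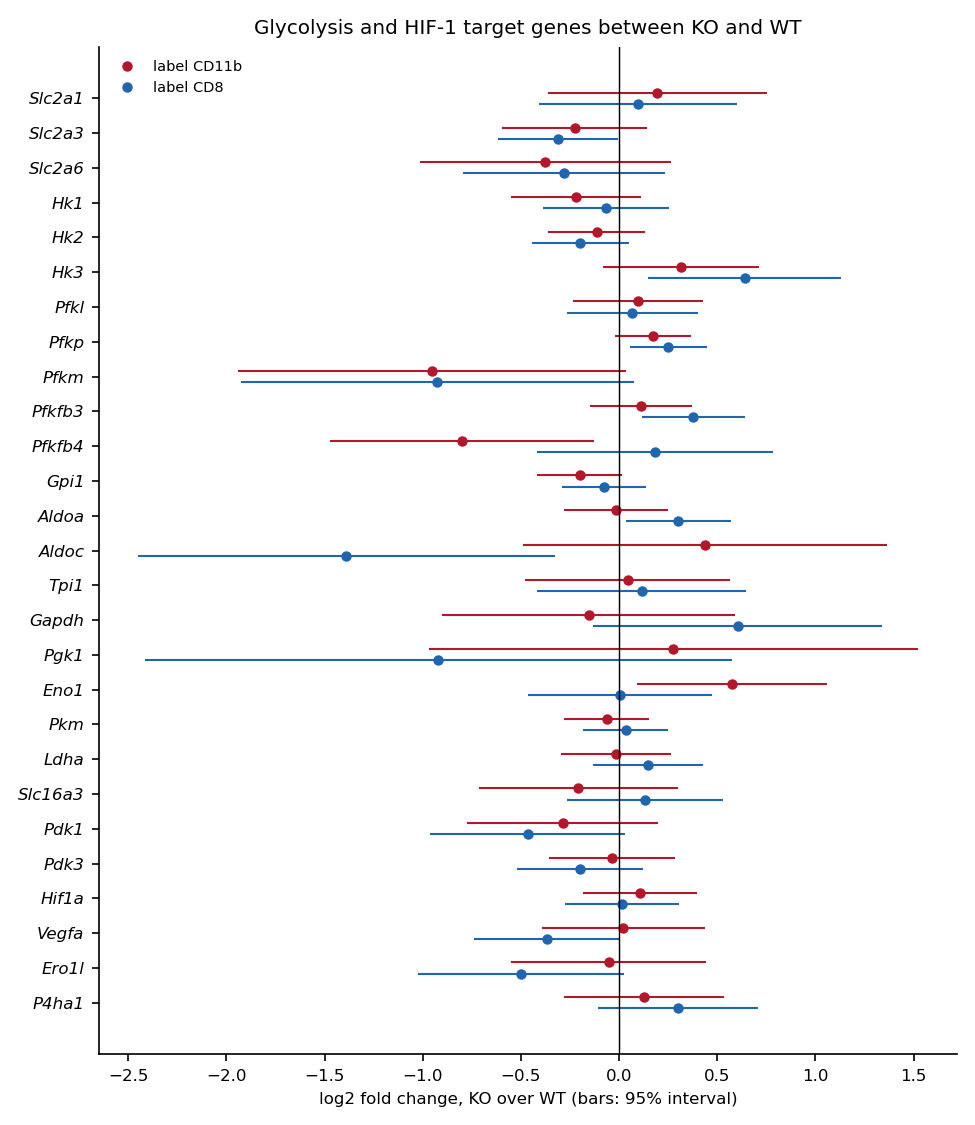
Log2 fold change of KO over WT at each label for 27 genes of the set, with bars for the 95% interval. Ldhb, Egln3 and Pgam1, which had few counts, are left out; none of the genes was called, and the values farthest from 0 are those of Aldoc at the label CD8 (−1.39), Pfkm at both labels (−0.95 and −0.93) and Pgk1 at the label CD8 (−0.92).

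The KO and WT libraries did not overlap for 8 of 30 genes (26.7%) at the label CD11b and 14 of 30 (46.7%) at the label CD8, against 20.5% and 24.0% of all genes tested. At both labels and in the same direction it held for 5 of 30 (16.7%), against 3.32% of all genes (1.71% higher and 1.62% lower), and none of the 5 was called at either label. The labels do not say whether same-numbered libraries of both labels came from 1 mouse, so the 2 labels may not be separate evidence. Hk3 was higher in KO at both labels, with 145 and 144 CPM in CD11b KO against 113 to 120 CPM in CD11b WT (0.31 ± 0.19 (SE), edgeR adjusted p = 0.837), and 11.4 and 14.9 CPM in CD8 KO against 4.26 to 10.7 CPM in CD8 WT (0.64 ± 0.24, edgeR adjusted p = 0.567). Pfkp, at 454 and 456 CPM in CD11b KO against 392 to 418 CPM in CD11b WT, and 142 and 142.5 CPM in CD8 KO against 115 to 122 CPM in CD8 WT, had 0.17 ± 0.09 and 0.25 ± 0.09 (edgeR adjusted p = 0.794 and 0.594). The other three were below WT in KO. Pfkm stood at 4.74 and 2.67 CPM in CD11b KO against 4.98 to 8.58 CPM in CD11b WT, and at 3.38 and 2.18 CPM in CD8 KO against 4.26 to 6.05 CPM in CD8 WT (−0.95 ± 0.48 and −0.93 ± 0.48). Gpi1 had −0.20 ± 0.10 and −0.08 ± 0.10, and Pdk1 −0.29 ± 0.23 and −0.47 ± 0.24.

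Aldoc went in opposite directions. It stood at 10.7 and 10.3 CPM in CD11b KO, above the 5.30 to 10.1 CPM of CD11b WT, and at 2.06 and 1.31 CPM in CD8 KO, below the 2.44 to 7.24 CPM of CD8 WT. The log2 fold change was 0.44 ± 0.45 (SE) at the label CD11b and −1.39 ± 0.51 at the label CD8. In the test of the difference between labels, edgeR, DESeq2 and limma-voom each called 0 of 30 genes (2 at an unadjusted p under 0.05 with edgeR, Aldoc and Pfkfb4), against 0.0206% of all genes called and 5.46% with an unadjusted p under 0.05. An average of the genotype effect over both labels, added after the data were seen, also called 0 of 30 with edgeR.

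Some markers of other cells and of the subsets also differed between genotypes at the label CD8. Of all the marker lists, edgeR, DESeq2 and limma-voom called Irf4, a transcription factor of type 2 conventional dendritic cells, and Cox6a2, a plasmacytoid dendritic cell marker. Their lists as a whole ran both ways. Of 13 markers of type 2 conventional dendritic cells, 6 had a positive and 7 a negative log2 fold change at the label CD8 (median −0.03). Of 8 plasmacytoid markers, 4 were positive and 3 negative (median 0.12). Irf4 had 330 ± 28.9 CPM in CD8 KO and 208 ± 33.4 CPM in CD8 WT (SD, n = 2 and 3; log2 fold change 0.67, edgeR adjusted p = 0.0269), and Cox6a2 5.93 and 8.88 CPM in CD8 KO and 0 to 0.815 CPM in CD8 WT (edgeR adjusted p = 0.0372). All 12 B cell markers had a positive log2 fold change there (median 1.22; 0 called by edgeR, 9 at an unadjusted p under 0.05), with sums of 1035 and 2773 CPM in KO against 573 to 1161 CPM in WT. Red pulp macrophage markers summed to 514 and 534.5 CPM in KO against 319.5 to 424 CPM in WT, with 10 of 12 positive (0 called by edgeR, 5 at an unadjusted p under 0.05). The 14 immediate early genes had negative values at both labels (median −0.31 at each; 0 called by edgeR, 5 and 7 at an unadjusted p under 0.05). At the label CD8, limma-voom also called Ighm, Igkc, C1qa, C1qb and Fosb, and both DESeq2 and limma-voom called the red pulp macrophage marker Hmox1. Their part in the shifts above was not tested.

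The neighbouring lists gave the same count. Of 98 further genes tested in the 7 lists, 0 were called between KO and WT by edgeR at either label (9 at an unadjusted p under 0.05 at the label CD11b and 4 at the label CD8). DESeq2 called Emb at the label CD11b, and DESeq2 and limma-voom called Hmox1, the heme oxygenase that is also a macrophage marker, at the label CD8. Emb had 3.80 ± 2.52 CPM in CD11b KO and 10.2 ± 1.59 CPM in CD11b WT (SD, n = 2 and 3; log2 fold change −1.38, edgeR adjusted p = 0.0522). Hmox1 had 76.2 ± 13.9 CPM in CD8 KO and 45.7 ± 7.89 CPM in CD8 WT (log2 fold change 0.74, edgeR adjusted p = 0.0647).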

How the data were processed

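RNA came from sorted splenic dendritic cells of Atg16l1 KO and WT mice, and libraries were made with a stranded total RNA kit, per the labels' protocols. The authors deposited raw counts of reads per gene, and STAR 2.5.0a and the build GRCm38 are named in the submitters' processing notes. Each deposited file gives counts for either strand and for both; the column of the gene's own strand was used, as it held 16.1 times the counts of the other. The 4 summary lines that name no gene were left out of totals and tests. Their reads mapping to several places made up 21.7% to 25.5% of reads per library and those in no gene 33.1% to 41.4%. Gene IDs were paired with symbols for 53274 of 53379 IDs. The depth, 9467704 to 13768884 gene counts, limits what can be seen of genes with few counts.

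All 10 libraries in 4 groups were fitted in edgeR 4.0.16 (filterByExpr, TMM scaling, quasi-likelihood test) in R 4.3.3, with p-values adjusted by Benjamini-Hochberg over 14528 genes and calls at 0.05. CPM used TMM-scaled library sizes, and levels between genes were divided by exon length. The alternatives were DESeq2 1.42.0, limma 3.58.1 with quality weights, other scalings and filters, counts without regard to strand, the compared libraries alone, a replicate block, and each library left out. The fit was also run on simulated counts with 2-fold changes in 200 genes. The share recovered is not given here, so how often a 2-fold change would be missed is not stated. Values in every library are given for the genes called between labels and for Hif1a, and the others by fold change, range or count.

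The members and lists were chosen with earlier results of these data known. Same-numbered libraries of one genotype deviated together across labels, with correlations of 0.100 to 0.149, but the labels do not name shared mice. The main fit did not pair them, and a replicate block was run only as an alternative. The evidence for pairing is thin: the KO pairs give 1 value because 2 libraries mirror each other about their mean, and CD11b WT 1 with CD11b KO 1, from different mice, reached 0.127. Each sample came from a single mouse per the protocols.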

Additional observations from a re-analysis of the deposited data

Results flagged for a closer look

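The genotype effect on Aldoc had opposite signs at the 2 labels, with KO and WT libraries apart at both. The log2 fold change of KO over WT was 0.44 at the label CD11b and −1.39 at the label CD8, and their difference of 1.83 had an edgeR adjusted p of 0.859 (unadjusted p = 0.0130), so it did not pass the correction over all genes. Counts of reads on the strand opposite to a gene, which lie outside the main counts, held a signal for Slc16a3 and Pfkm. Over all libraries, 13.8% of the reads over Slc16a3 lay on the opposite strand, 52.9% at the label CD11b (27.5% to 75.6% over libraries) and 6.43% at the label CD8 (4.17% to 9.33%). For Pfkm the share was 12.7%, with 12.9% at the label CD11b and 12.3% at the label CD8, but it rested on 83 reads and ran from 2.30% to 37.2% and from 0% to 29.3% over the libraries of each label. Groups of 2 and 3 libraries were too small for a check of single libraries that stand apart.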

How the results depend on the processing

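Over the alternatives run, 15 to 17 genes of the set were called between labels in KO and 16 to 18 in WT, and 0 in the comparisons of KO with WT and in their difference. Of 3180 recomputed values of single genes, 3157 kept their side of the threshold, 15 lost a call, 8 gained one and 0 calls reversed in direction. A change of sign in a gene that was not called was not counted. With a replicate block, 17 genes were called between labels in each genotype and 0 between KO and WT, and no call of the set changed. Between labels the block paired same-numbered libraries of one genotype. Between KO and WT, and for the difference between labels, it grouped libraries by number alone. Different mice then shared a block, so those counts are no check of pairing.

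Counts over all genes were less steady. Between KO and WT at the label CD11b, 21 genes were called, against 71 with no filter, 42 with DESeq2, 42 for the effect averaged over labels and 13 without CD11b WT 1 and CD8 KO 2. At the label CD8, 21 were called, against 40 with library totals, 142 with no filter, 59 with DESeq2, 63 with limma-voom, 78 with the compared libraries alone, 42 for the averaged effect, 32 without CD11b WT 1, 53 without CD8 KO 1 and 7 without CD8 KO 2. The difference between labels gave 3, against 5 with library totals, 41 with no filter, 6 without regard to strand, 12 with DESeq2, 8 with the replicate block and 5 to 8 with a library left out. The cause was not tested. Leaving out a KO library leaves 1 in its group, which is assumed to vary like the other groups.

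The log2 fold change of Ldhb in WT, from few counts, was −1.70 (not called by edgeR), −3.79 with limma-voom (limma adjusted p = 0.0491) and −7.50 without CD11b WT 1 (edgeR adjusted p = 0.0204). For Pgk1 in KO, limma-voom gave 4.06. The number of counts limits Ldhb, Egln3, Pgam1 and Pgk1 in particular.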

Other observations

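Pathways that branch from glycolysis were read in the same way. Of 10 genes of the pentose phosphate pathway, 1 was higher and 2 lower at the label CD11b in each genotype with edgeR, 30% against 22.8% of all genes tested in KO and 29.5% in WT, which is near that background in WT. G6pdx, the enzyme that commits glucose to this branch, had log2 fold changes of −1.16 ± 0.20 (SE) in KO and −1.04 ± 0.16 in WT (edgeR adjusted p = 0.000102 and 2.21e-05), and averaged 25.5 CPM in CD11b KO against 57.1 CPM in CD8 KO. Taldo1, the transaldolase, was higher (0.58 in KO and 0.57 in WT).

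Of 14 genes of glycogen metabolism, 3 were higher and 1 lower in KO, and 4 higher and 3 lower in WT (28.6% and 50% called, against the same 22.8% and 29.5%). Pygl, the liver-type glycogen phosphorylase, had −2.56 ± 0.40 in KO and −2.76 ± 0.33 in WT (edgeR adjusted p = 3.03e-05 and 4.38e-07), whereas the glycogen synthase gene Gys1 had 0.74 ± 0.26 and 0.88 ± 0.21 (edgeR adjusted p = 0.0458 and 0.00267). Neither pathway held a gene called between KO and WT by edgeR, with 2 at an unadjusted p under 0.05 at the label CD11b and 1 at the label CD8.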
